A study of Saccharomyces cerevisiae with 8 samples.

Results

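The response of a temperature-sensitive MET30 mutant of the budding yeast Saccharomyces cerevisiae to 1 h at 35 °C was measured on 4 of the 8 expression arrays of the study. Of these arrays, 2 held RNA of the met30-6 strain (named py283 in the labels) after 1 h at 35 °C, the non-permissive temperature, and 2 held RNA of the same strain at 25 °C, the permissive temperature, titled RT. The other 4 arrays held a strain named PY1, 2 after 1 h at 35 °C and 2 at 25 °C, and are set beside the mutant where they show how its response differed. All cultures were in mid-log growth in YPDA, a rich medium, and the sources used here do not give a genotype for PY1. In met30-6 the warming and any loss of Met30 activity came together, so the comparison within that strain cannot tell them apart. All 5449 genes that could be named were compared. Whether the 2 samples of a group were separate cultures is not stated in the labels. The p-values reflect the spread within groups, pooled for each gene over all 8 arrays and moderated across genes. That spread may therefore be technical alone.

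Met30 is the F-box subunit that brings substrates to an SCF ubiquitin ligase. Its best known substrate is Met4, the activator of the genes that take up sulfate and turn it into methionine, cysteine and S-adenosylmethionine. Met4 does not bind DNA by itself and is brought to promoters by Cbf1 or by Met31 and Met32, with Met28 as a helper. In replete cells Met30 keeps Met4 ubiquitylated and inactive, and cells that lose Met30 stop dividing unless MET4 is removed too. Warming is known to start the heat shock factor and Msn2/Msn4 programmes in yeast and to lower the transcripts for ribosome synthesis.

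Values are the deposited log2 expression values, so a difference of 1 is a 2-fold change, and each difference is the 35 °C mean minus the 25 °C mean with its SE from limma, fitted to all 8 arrays. A call required an adjusted p (limma, Benjamini-Hochberg over 5449 genes) under 0.05. In met30-6, 3712 genes were called, 68.1% of those tested. They comprised 2116 higher at 35 °C (38.8%) and 1596 lower (29.3%). The called differences reached 2-fold for 435 higher genes (7.98%) and 289 lower genes (5.3%). After quantile normalisation the balance turned, with 1910 genes higher and 1957 lower, and 323 higher and 342 lower by at least 2-fold. The 35 °C and 25 °C arrays of met30-6 did not overlap for 4670 genes (85.7%). In the values as deposited, 44 called genes were higher by at least 3 on the log2 scale and 4 were lower by as much. The balance of 2-fold calls varied with the 25 °C level. With a 25 °C mean under 6, 80 genes rose and 5 fell, and from 6 to 8 the counts were 65 and 9. From 8 to 10 they were 89 and 29, from 10 to 12 they were 144 and 168, and from 12 to 15, 57 and 78. These classes use the 25 °C mean, which is part of the difference. Over all genes the median difference was 0.07 on the log2 scale, and after quantile normalisation it was -0.0065.

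The same warming gave 1998 called genes in PY1 (36.7%), 1429 higher (26.2%) and 569 lower (10.4%), of which 139 (2.55%) and 39 (0.716%) reached 2-fold. The median size of a difference, without regard to sign, was 0.364 in met30-6 and 0.177 in PY1 on the log2 scale. A gene's temperature response was compared between the strains by the interaction, the met30-6 difference minus the PY1 difference. It was called for 1294 genes in the upward direction (23.7%) and 1337 in the downward direction (24.5%), and reached 2-fold for 249 (4.57%) and 293 (5.38%). The values of the array replicates correlated at Pearson r = 0.994 in met30-6 at 35 °C and 0.994 at 25 °C, across genes. In bulk RNA, a smaller share of cells that express a gene and less of its RNA per cell cannot be told apart.

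The transcript of MET30 itself read 13.03 and 13.11 in met30-6 at 35 °C, against 11.69 and 11.65 at 25 °C. It was thus higher on both warm arrays, by 1.40 ± 0.06 (SE, n = 2 each, adjusted p = 3.61e-06 by limma). In PY1 it read 10.98 and 10.97 at 35 °C, against 11.06 and 10.99 at 25 °C. A point allele that acts on the protein leaves its transcript in place, so the level of MET30 does not check the strain label.

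The 15 largest called rises in met30-6, among genes with both means of at least 6, were led by NQM1, CRF1, AMF1 and HSP26. NQM1, a transaldolase paralog of the pentose phosphate pathway, read 13.08 and 13.22 at 35 °C, against 7.78 and 7.93 at 25 °C. It was higher by 5.29 ± 0.13 (SE, n = 2 each, adjusted p = 5.77e-07 by limma), a 39.2-fold change. CRF1, a corepressor of ribosomal protein genes, read 11.06 and 11.10 at 35 °C, against 6.13 and 6.40 at 25 °C, a difference of 4.81 ± 0.26. HSP26, a small heat shock protein that binds unfolded proteins, read 14.25 and 14.28 at 35 °C, against 9.75 and 9.70 at 25 °C, a difference of 4.54 ± 0.05. At 35 °C its values were close to the top of the array scale, whose highest value was 14.51. The other genes among the 15 with the largest rises ran between 3.49 and 4.62. They included AMF1, a putative ammonium transporter (4.62), ALD3, a cytosolic aldehyde dehydrogenase (4.29), and SOL4, a phosphogluconolactonase (4.20). CYB2, which oxidises lactate in mitochondria, rose by 3.85, and SPI1, a cell wall protein of stressed cells, by 3.63. PAI3, the inhibitor of the vacuolar proteinase A, rose by 3.58, and CHA1, which breaks down serine and threonine, by 3.57. PHM7, FMP45, FMP16, HBT1 and EGO4 made up the rest.

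All of these 15 genes also read higher in PY1 at 35 °C than at 25 °C, by 0.58 to 3.18, and 14 of them were called there, FMP16 being the exception (0.58). For all 15 the interaction was called in the upward direction, beside 23.7% of all genes, so the mutant's difference was larger. These genes were picked by their met30-6 difference, which is part of the interaction, so the count is no separate test. CRF1 differed by 4.81 in met30-6 and by 1.18 in PY1, AMF1 by 4.62 and 1.24, and NQM1 by 5.29 and 3.16. SPI1 differed least between the strains, with 3.63 in met30-6 and 2.31 in PY1. Genes whose 25 °C mean lay under 6 were ranked apart, since it is not known which values lie above background. The largest called rises among them were those of DIA3 (4.65), GIP2, a glycogen-linked subunit of protein phosphatase Glc7 (4.55), CRC1, the mitochondrial carnitine carrier (4.10), YNL194C (3.81), PHO92 (3.77) and SNO4 (3.69).

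The largest fall by value was that of HO, followed by SCS3. HO, the endonuclease of mating-type switching, read 5.88 and 5.68 at 35 °C, against 11.50 and 11.56 at 25 °C. Both warm arrays lay far below both cool ones, with a difference of -5.75 ± 0.09 (SE, n = 2 each, adjusted p = 2.3e-07 by limma), but its warm values lay under 6 and were not shown to be above background, so no fold is given. HO read 11.41 and 11.57 in PY1 at 35 °C, against 11.67 and 11.64 at 25 °C, a difference that was not called. SCS3, an endoplasmic reticulum protein of lipid metabolism, read 7.57 and 5.68 at 35 °C, against 10.57 and 10.67 at 25 °C. Its warm arrays lay far apart, and its difference of -4.0 ± 0.52 is accordingly less precise. PUT1, proline oxidase, read 10 and 9.92 at 35 °C, against 12.64 and 12.70 at 25 °C (-2.71 ± 0.07). In PY1 the same gene moved upward, by 0.74, and it read 8.64 and 8.78 at 35 °C, against 7.94 and 7.99 at 25 °C.

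Among the 15 genes with the largest falls and both means of at least 6, PUT1 and SCS3 were followed by TOS2, linked to bud growth (-2.70), and YHB1, the flavohaemoglobin that removes nitric oxide (-2.69). FET4, a low-affinity iron transporter, fell by 2.61, as did URA1, the dihydroorotate dehydrogenase of pyrimidine synthesis (-2.395). LTV1 (-2.56) and REA1 (-2.27), which act in the assembly of the small and the large ribosomal subunit, were also in this group. TIR3, a cell wall mannoprotein, read 8.38 and 7.23 at 35 °C, against 10.10 and 10.17 at 25 °C (-2.33), another case where the warm arrays stood apart. INA1, HMS2, RNH201, WSC4, YDL129W and CTF19 completed the group, with falls between 2.11 and 2.51. For 14 of the 15 the interaction was called downward, beside 24.5% of all genes. WSC4 was the exception, with -2.23 in met30-6 and -1.58 in PY1. Here too the genes were picked by their met30-6 difference, so the count is no separate test. Besides HO, genes that fell to a mean under 6 at 35 °C included YGR035C (-3.43), GTO3, a glutathione transferase of the omega class (-3.08), and DAN1, a cell wall mannoprotein of anaerobic cells (-2.70). YAL065C and YJL136W-A were also called in this class, but YAL065C (-2.56) differed by -0.9995 without met30-6 35 °C replicate 1 and by -4.12 without replicate 2, and YJL136W-A (-2.14) by -0.9985 without met30-6 35 °C replicate 2 and by -3.28 without replicate 1.

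**Figure D1:**
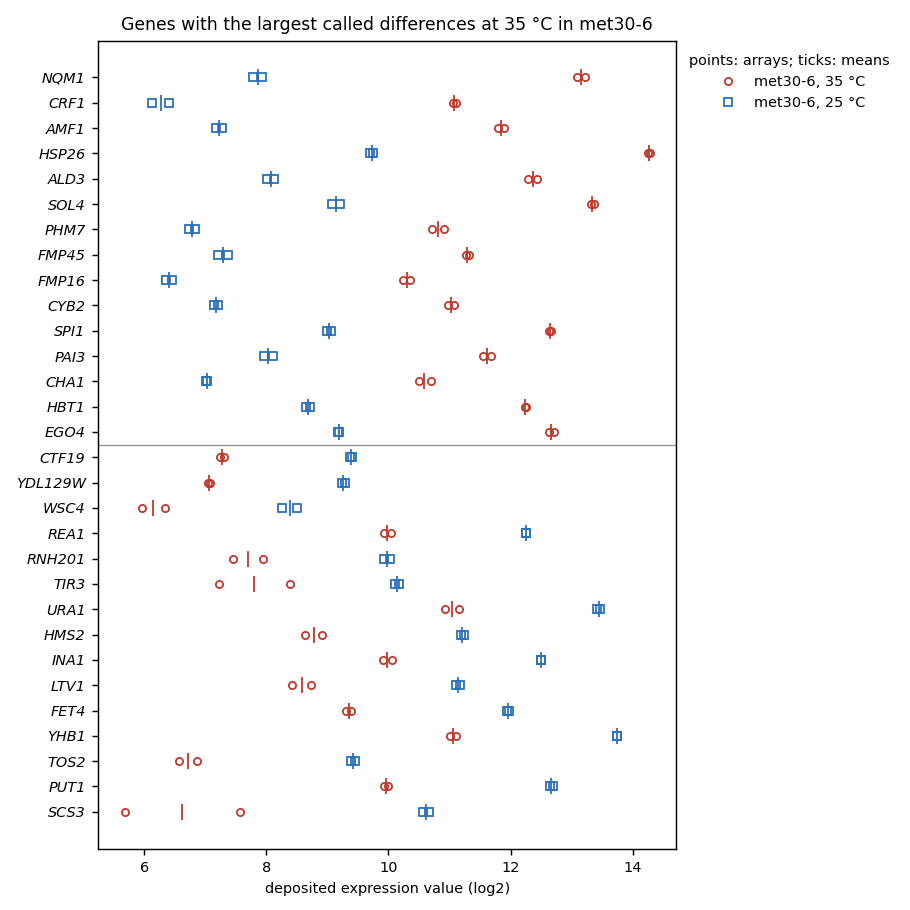
Deposited log2 values (horizontal axis) of the 15 called genes with the largest rises (upper block) and the 15 with the largest falls (lower block) in met30-6 among genes with both means of at least 6; circles are the 2 arrays at 35 °C, squares the 2 arrays at 25 °C, and vertical ticks the means. The 2 colours do not overlap for any of the 30 genes, which were picked for their differences on these same arrays. Among all 5449 genes, 85.7% did not overlap. The warm arrays of SCS3 (7.57 and 5.68) lie farthest apart.

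Sulfur genes rose in met30-6 although they were already abundant at 25 °C. Of the 6 genes of the Met4 complex and Met30, 4 were called higher and 0 lower, beside 38.8% and 29.3% of all genes. The same shares of all genes stand beside each list count below. The lists were chosen with earlier results of these data known, so their counts are no separate test. MET32, a zinc-finger partner that brings Met4 to DNA, read 13.17 and 13.21 at 35 °C, against 11.34 and 11.45 at 25 °C (1.79 ± 0.07, adjusted p = 4.03e-06 by limma). Its paralog MET31 read 8.30 and 8.15 at 35 °C, against 8.32 and 8.51 at 25 °C, and was not called. MET28 rose by 1.39 ± 0.10 and MET4 by 0.60 ± 0.07, whereas CBF1 differed by 0.07 ± 0.08 and was not called. Thus the 2 DNA-binding paralogs moved unlike each other, and MET32 had the largest rise of the complex.

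Of 23 genes of sulfate uptake, sulfate reduction and methionine synthesis, 16 rose and 0 fell in met30-6, with a median difference of 0.49. MET8 and MET1, which make the siroheme cofactor of sulfite reductase, rose by 1.71 and 1.25. MET2, which acetylates homoserine, rose by 1.09, SUL2, a sulfate permease, by 1.04, and MET16, which reduces activated sulfate, by 0.95. The level of the list as a whole stood at a median of 13.87 at 35 °C and 13.33 at 25 °C in met30-6, against 11.87 at 35 °C and 12.43 at 25 °C in PY1. SUL1, the other high-affinity sulfate permease, read 14.07 and 14.02 in met30-6 at 35 °C, against 13.48 and 13.54 at 25 °C (0.54 ± 0.11). In PY1 it read 5.24 and 5.58 at 35 °C, against 8.85 and 8.73 at 25 °C. Several of these genes therefore sat within 1 log2 unit of the highest value on the arrays at 35 °C, and the part of the array's upper range in their differences was not tested.

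Of 19 genes listed under the uptake and breakdown of organic sulfur compounds, 16 rose and 3 fell, with a median of 0.92. The list is broad and also holds PDC6, a pyruvate decarboxylase, and BNA3, GNP1 and GTT1. It shares STR3 and IRC7 with the transsulfuration list and PDC6 with the glycolytic list, so these counts are not separate. STR3, which turns cystathionine into homocysteine, read 13.83 and 13.86 at 35 °C, against 11.89 on both arrays at 25 °C (1.96 ± 0.10). JLP1, which frees sulfite from sulfonates, read 14.06 and 14.02 at 35 °C, against 12.39 and 12.28 at 25 °C (1.71 ± 0.20). In PY1 JLP1 read between 5.35 and 6.60 at either temperature, so the mutant stood far above PY1 before the shift as well as after it. MUP3, a methionine permease, rose by 1.63, MHT1, which recycles S-methylmethionine, by 1.44, and the cysteine transporter YCT1 by 1.28. The 3 that fell were IRC7, which cleaves cysteine (-1.45), SAM4, which makes methionine from S-adenosylmethionine (-0.99), and the amino acid permease AGP1 (-0.29). AGP1 lost its call when any 1 met30-6 array was left out (adjusted p = 0.0717 to 0.0968 by limma). MHT1 and SAM4, homocysteine methyltransferases with different methyl donors, thus moved in opposite directions.

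Transsulfuration and glutathione genes were mixed. Of 15, 9 rose and 2 fell, beside 38.8% and 29.3% of all genes, with a median of 0.48. DUG3, of glutathione breakdown, rose by 1.74, and the omega glutathione transferases GTO1 and ECM4 rose by 1.53 and 1.10. GTO3, of the same class, read 5.86 and 5.81 at 35 °C, against 8.86 and 8.96 at 25 °C. GSH1, the first enzyme of glutathione synthesis, read 13.56 and 13.66 in met30-6 at 35 °C, against 12.65 and 12.72 at 25 °C (0.92). In PY1 it read 10.94 and 10.99 at 35 °C, against 12.35 and 12.28 at 25 °C (-1.35).

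**Figure D2:**
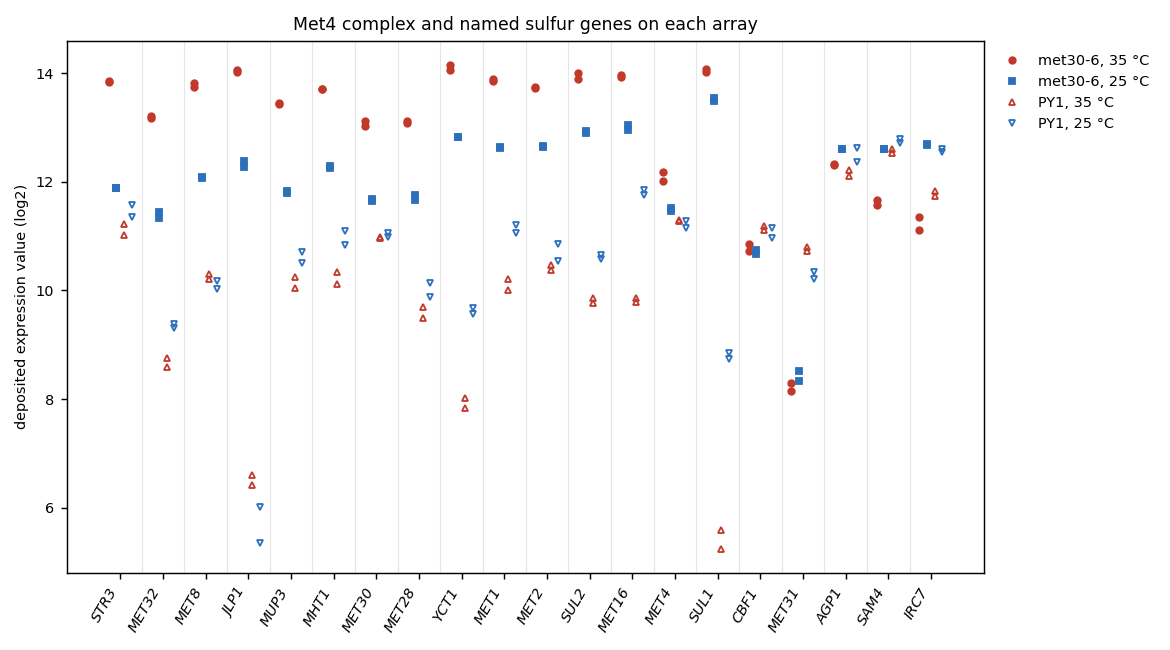
Deposited log2 values (vertical axis) of the Met4 complex, SUL1 and the named genes of both sulfur lists on each of the 8 arrays, ordered by the met30-6 difference; filled symbols are met30-6, open symbols PY1, red 35 °C and blue 25 °C. Most sulfur genes of met30-6 at 35 °C lie near 14, with the 25 °C arrays below them, while IRC7, SAM4 and AGP1 at the right end are lower at 35 °C.

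The listed general stress genes rose, in a list chosen with earlier results of these data known, so the count does not test the programme as a whole. All 36 genes listed under the stress activators Msn2 and Msn4 were called higher in met30-6, 33 of them by at least 2-fold, with a median difference of 2.28. In PY1 32 were called higher, with a median of 0.77. The interaction was called upward for 32 of the 36. Of 33 targets of the heat shock factor, 28 rose and 0 fell in met30-6, with a median of 0.78, beside 21 higher and 0 lower in PY1 with a median of 0.41. After HSP26, the largest rises among them were those of the inducible Hsp70 gene SSA4 (2.26), the small heat shock gene HSP42 (2.15), the Hsp110 gene SSE2 (2.06) and the Hsp90 gene HSP82 (1.65). The interaction was called upward for 17 of these 33 and downward for 0. The rise was thus shared by both strains in direction and larger in met30-6 for most listed stress genes.

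Of 21 trehalose and glycogen genes, 19 rose and 1 fell, with a median of 1.31. The general stress list also holds 8 of these 21, GPH1, PGM2 and GAC1 among them, so the counts of these lists are not separate. GPH1, glycogen phosphorylase, rose by 2.69, PGM2, the major phosphoglucomutase, by 2.52, and ATH1, an acid trehalase, by 2.23. GAC1, another glycogen-linked phosphatase subunit, rose by 3.14 but had values of 4.06 and 3.86 at 25 °C. Of 28 thioredoxin, glutaredoxin and oxidative stress genes, 20 rose and 2 fell, with a median of 0.46. TSA2, an inducible peroxiredoxin, rose by 3.41, the mitochondrial peroxiredoxin PRX1 by 1.85 and the glutaredoxin GRX1 by 1.48. GPX2 (-0.72) and GRX4 (-0.57) were the 2 that fell.

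In many enzyme pairs one gene serves growth and its paralog serves stress. The 30 pairs listed hold such pairs and others, such as MET32 with MET31 and MDH2 with MDH1. Each has the stress or minor form first where one is known. NQM1 rose by 5.29 and its paralog TAL1, the main transaldolase, by 0.32. SOL4 rose by 4.20, while SOL3 differed by -0.05 and was not called. TKL2 rose by 3.46, TSA2 by 3.41 and GPM2 by 3.01, whereas their abundant partners differed by 0.18 (TKL1, not called), 0.17 (TSA1, called) and -0.06 (GPM1, not called). GPM1 read 14.22 to 14.34 on the met30-6 arrays, close to the highest array value, and the part of that limit in its difference was not tested. TSA1 lost its call when any 1 met30-6 array was left out (adjusted p = 0.0629 to 0.108 by limma). CTT1, the cytosolic catalase, read 11.27 and 11.34 at 35 °C, against 8.53 and 8.55 at 25 °C, while the peroxisomal catalase CTA1 read 6.50 and 6.40 at 35 °C, against 5.89 and 6.87 at 25 °C. In each of these pairs the member listed first had the larger difference. They are quoted for their wide gaps, and all pairs were chosen with earlier results of these data known, so this is no separate test.

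Other pairs moved in opposite directions, both members called. PGM2 rose by 2.52 and PGM1 fell by 1.19. CYC7, the cytochrome c form of low oxygen and stress, read 12.07 and 12.28 at 35 °C, against 10.20 and 10.28 at 25 °C (1.93). CYC1, the main form, read 12.07 and 12.11 at 35 °C, against 12.41 and 12.48 at 25 °C (-0.35). SER33 and SER3, which both begin serine synthesis, differed by 0.90 and -1.12, and MDH1 and MDH2, the mitochondrial and the cytosolic malate dehydrogenase, by 0.85 and -0.90. GPD1, the glycerol phosphate dehydrogenase of osmotic stress, rose by 1.07 while GPD2 differed by -0.56. Without met30-6 25 °C replicate 1, GPD2 differed by -0.30, and without 35 °C replicate 1 or replicate 2 by -0.55 and -0.58. GPD2 lost its call in each of these fits. In a few pairs the listed order did not hold: GRX1 (1.48) rose more than GRX2 (0.92) and SUL2 (1.04) more than SUL1 (0.54), and the ubiquitin-conjugating genes UBC5 and UBC4 rose alike, by 0.75 and 0.77. No test between paralogs was made, since probe sets of different genes are not on one scale of level.

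**Figure D3:**
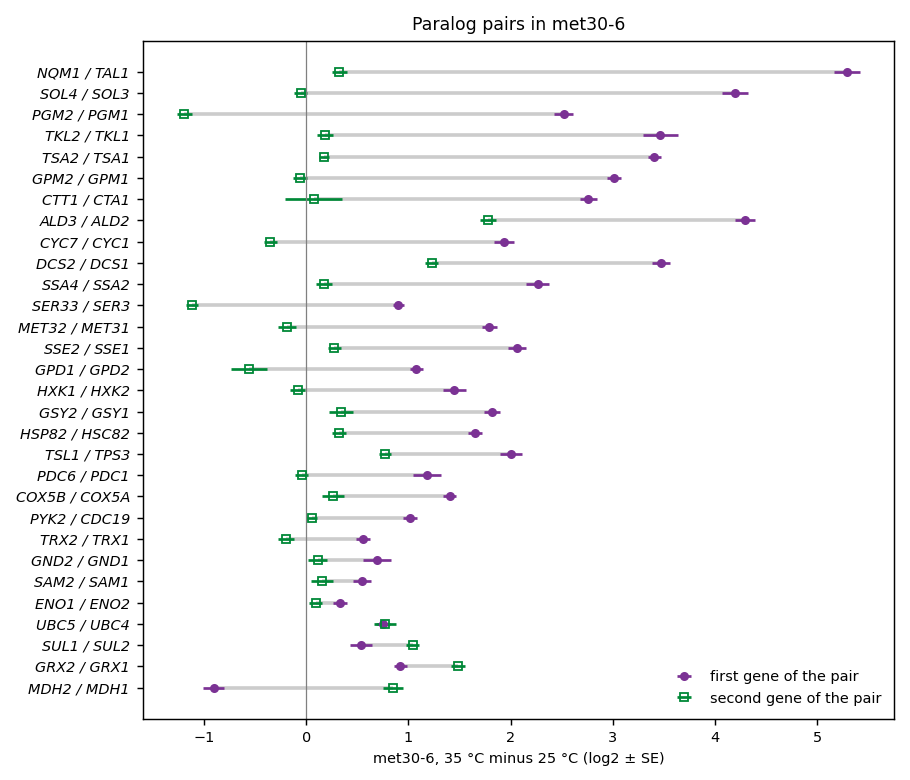
Difference between 35 °C and 25 °C in met30-6 (horizontal axis, log2, bars are SE) for the first gene (filled circle) and second gene (open square) of 30 listed paralog pairs, ordered by the gap between them. NQM1 (5.29) and TAL1 (0.32) are farthest apart, and only MDH2, GRX2, SUL1 and UBC5 lie to the left of their partners.

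All 34 proteasome genes, counting the regulator RPN4, were called higher in met30-6, with a median of 0.53 and a range of 0.18 to 0.78. In PY1 1 was higher and 4 were lower, and the interaction was called upward for 32. PRE3, a catalytic subunit, rose by 0.78 and the lid subunit RPN12 by 0.72. After quantile normalisation 25 of the 34 remained called. Of 36 ubiquitin genes and deubiquitinases, 17 rose and 6 fell, beside 38.8% and 29.3% of all genes. UBI4, the stress-induced polyubiquitin gene, rose by 1.48, UBC8 by 1.03 and the deubiquitinase DOA4 by 0.98, while UBC11 fell by 1.11. Of 19 SCF subunit and F-box genes besides MET30, 13 rose and 1 fell. The F-box gene SAF1 rose by 1.14 and the cullin CDC53, the scaffold of SCF, by 0.55, whereas the F-box gene DIA2 fell by 0.59.

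Autophagy genes rose in number, 26 of 33 with 1 lower and a median of 0.67. The scaffold ATG17 read 10.23 and 10.50 at 35 °C, against 8.57 and 8.54 at 25 °C (1.81). ATG1, the kinase that starts autophagy, read 11.46 and 11.50 at 35 °C, against 9.85 and 9.97 at 25 °C (1.57), while in PY1 it differed by 0.11 and was not called. The selective receptors ATG39 and ATG36 rose by 1.81 and 1.71, with called rises of 1.25 and 1.31 in PY1. Genes of folding in the endoplasmic reticulum rose in 17 of 23 cases and fell in 2, with a median of 0.59. SIL1, an exchange factor of the chaperone Kar2, rose by 1.50, the disulfide isomerase MPD1 by 1.48 and the oxidase ERO1 by 1.23.

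Most listed genes of ribosome synthesis fell in met30-6 and moved little in PY1, and these lists too were chosen with earlier results known. All 69 ribosome assembly factors were called lower, 38 of them by at least 2-fold, with a median of -1.08. In PY1 1 was higher, 8 were lower, and the median was -0.08. The interaction was called downward for 66 of the 69. NOP7, needed for the large subunit, read 10.29 and 10.04 at 35 °C, against 12.12 and 12.07 at 25 °C (-1.93). KRR1 (-1.84), RRP5 (-1.75) and the helicase HAS1 (-1.69) followed after LTV1. Of 26 genes for subunits of RNA polymerases I and III and for polymerase I initiation factors, 24 fell and 1 rose, with a median of -0.60. RPA135 and RPA190, the large subunits of polymerase I, fell by 1.77 and 1.72. RRN11, a polymerase I initiation factor, was the 1 that rose (0.39).

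Cytosolic ribosomal protein genes, among the most abundant transcripts of yeast, had smaller differences than the assembly factors, at a median level of 13.62 at 35 °C and 13.82 at 25 °C, toward the top of the scale. Of 127, 68 fell and 3 rose, with a median of -0.19, and 118 were called lower after quantile normalisation. The falls of single paralogs stood out. RPS9A read 10.73 and 10.82 at 35 °C, against 12.69 and 12.76 at 25 °C (-1.95), and RPS22B and RPL9A fell by 1.64 and 1.14. RPL15B (0.50), RPL9B (0.24) and RPS23A (0.17) were the 3 that rose, so the paralogs RPL9A and RPL9B were called in opposite directions, although RPL9B differed by -0.07 after quantile normalisation. Without met30-6 35 °C replicate 2, RPL9B differed by 0.17 and RPS23A by 0.11, and neither was called. RPL9B also lost its call when either met30-6 25 °C array was left out. RPS23A also lost its call with the met30-6 arrays alone, with array medians centred and after quantile normalisation. Probe sets of such near-identical genes may share signal. Of 43 translation factors and tRNA synthetases, 29 fell and 1, HYP2, rose. TIF3 fell by 1.01 and TIF4631, the scaffold of cap binding, by 0.91, and without either met30-6 replicate 2 array the number lower was 19. Mitochondrial ribosomal proteins went the other way, with 42 of 68 higher, 3 lower and a median of 0.22, and 25 higher without met30-6 25 °C replicate 1. PY1 had 41 higher and 0 lower with a median of 0.22, and the interaction was not called for 57 of the 68.

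**Figure D4:**
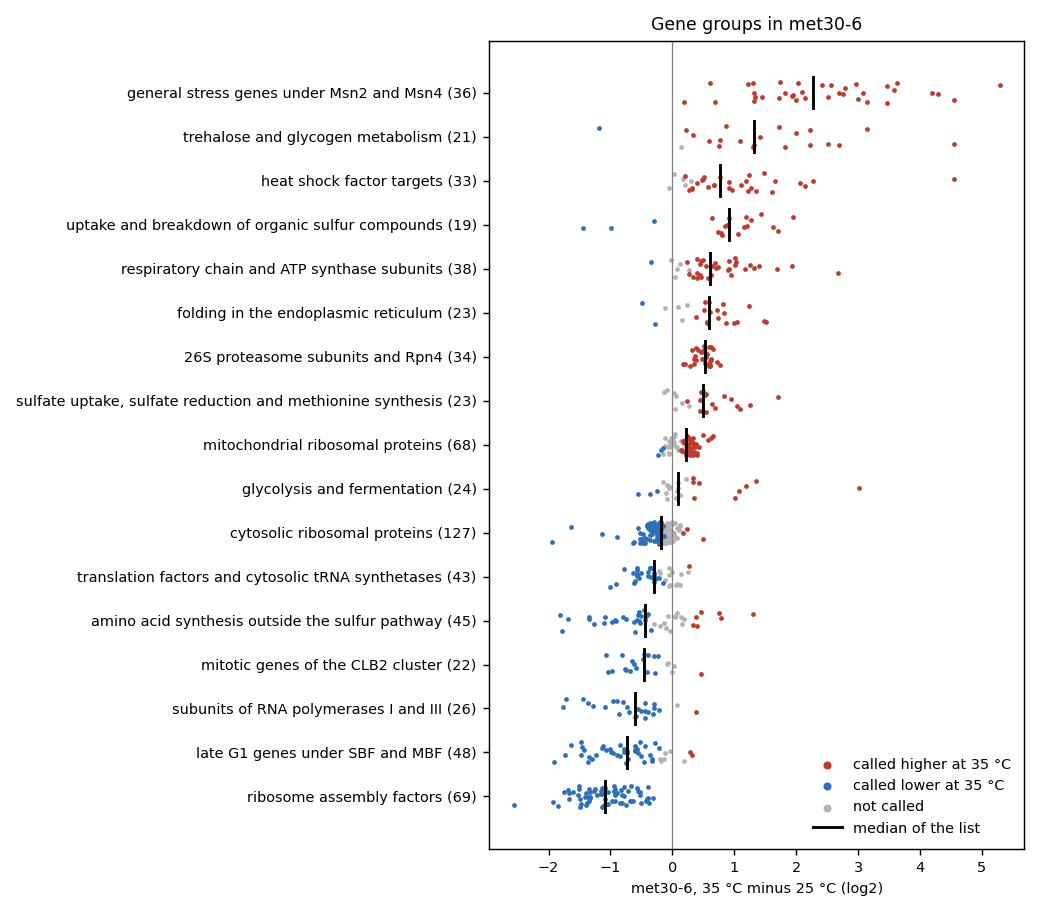
Difference between 35 °C and 25 °C in met30-6 (horizontal axis, log2) for each gene of 17 lists, with the number of measured genes in brackets; red points were called higher, blue points called lower, grey points were not called, and black bars are list medians. General stress genes lie to the right with a median of 2.28 and ribosome assembly factors to the left with a median of -1.08. The list labelled as subunits of RNA polymerases I and III also holds polymerase I initiation factors.

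Among the cell cycle lists, that of late G1 had the lowest median. Of 48 late G1 genes, which SBF and MBF switch on at the start of the cycle, 40 fell and 2 rose in met30-6, with a median of -0.73. In PY1 34 of the same genes were higher and 0 lower, with a median of 0.36, and 31 were called in opposite directions in the strains. CLB6, an S-phase cyclin, read 8.26 and 8.39 in met30-6 at 35 °C, against 10.20 and 10.27 at 25 °C (-1.92 ± 0.08, adjusted p = 4.03e-06 by limma). In PY1 it read 10.93 and 10.95 at 35 °C, against 10.67 and 10.49 at 25 °C (0.36). TOS6, a cell wall protein, fell by 1.73 in met30-6, RNR1, the large subunit of ribonucleotide reductase, by 1.63, the cyclin PCL1 by 1.48 and NRM1, a corepressor of MBF, by 1.47. The 2 that rose were OPY2 (0.32) and EXG1 (0.28), and EXG1 differed by -0.02 after quantile normalisation and lost its call when any 1 met30-6 array was left out (adjusted p = 0.0544 to 0.0929 by limma).

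By list median, the lists of other stages shifted less. Of 9 histone genes, 6 fell and 0 rose, with HTB2 at -1.01 and the linker histone HHO1 at -0.54. Of 22 genes of the mitotic CLB2 cluster, 17 fell and 1, APC1, rose. CLB2, the main mitotic cyclin, read 9.63 and 9.36 at 35 °C, against 10.50 and 10.63 at 25 °C (-1.07), and it was also lower in PY1 (-0.85), with no call for the interaction. CDC20 fell by 1.04 in met30-6 and CLB1 by 0.98. Of 15 origin licensing genes, 8 fell and 1 rose, beside 29.3% and 38.8% of all genes. MCM7 (-0.65) and CDC6 (-0.61) fell most. Genes listed for the M/G1 interval and daughter cells were divided, 10 of 21 higher and 4 lower, beside 38.8% and 29.3% of all genes. That list also holds HO, an SBF target, which was not counted with the late G1 genes. PIR3 rose by 1.40, and HO, FAR1 (-1.13), MCM3 (-0.53) and MCM2 (-0.26) were the 4 that fell; without met30-6 35 °C replicate 1 the number higher was 5, and it was 6 without met30-6 25 °C replicate 2 and likewise after quantile normalisation. Of 18 DNA damage genes, 9 rose and 4 fell, beside 38.8% and 29.3% of all genes. Those that rose included the glycosylase gene MAG1 (0.98) and the repair gene RAD16 (1.23), and RNR1 was among the falls.

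Amino acid synthesis outside the sulfur pathway fell more often than it rose, 26 of 45 lower and 7 higher with a median of -0.45. LYS4, of lysine synthesis, read 9.96 and 9.88 at 35 °C, against 11.70 and 11.78 at 25 °C (-1.82). ARG3, of arginine synthesis, read 9.62 on both arrays at 35 °C, against 11.35 and 11.45 at 25 °C (-1.78), while in PY1 it was higher at 35 °C by 0.68. LEU9 fell by 1.69, BAT1 by 1.35 and GDH1, which fixes ammonium into glutamate, by 1.34. ARO10 (1.30) and ARO9 (0.78), which break down aromatic amino acids, rose in met30-6 and were lower in PY1 at 35 °C (-0.78 and -0.92).

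Of 16 serine, glycine and folate genes, 11 rose and 5 fell, with a median of 0.79. GCV1, GCV2 and GCV3, of the glycine cleavage complex, rose by 3.08, 2.62 and 1.36. GCV1 read 13.47 and 13.43 at 35 °C, against 10.36 and 10.38 at 25 °C. SHM2, the cytosolic serine hydroxymethyltransferase, rose by 1.41, and SHM1, the mitochondrial form, fell by 0.63. MIS1, a mitochondrial folate enzyme, fell by 1.45. The glycine cleavage genes and SHM2 were called higher in PY1 too, with 1.71 for GCV1, and the interaction was called upward for all 4.

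Of 18 purine genes, 5 rose and 7 fell, beside 38.8% and 29.3% of all genes, and 11 were called lower after quantile normalisation. ADE17, of late purine synthesis, rose by 1.52, and AAH1, adenine deaminase, read 10.96 and 10.48 at 35 °C, against 12.13 and 12.15 at 25 °C (-1.42). GUA1 and APT1 fell by 1.09 and 1.08. Of 23 genes of proline, allantoin and ammonium use, 4 rose and 11 fell, beside 38.8% and 29.3% of all genes. The amino acid permease GAP1 fell by 1.99, as did PUT4, a proline permease (-1.50), and MEP2, an ammonium permease (-1.49), while UGA1 and UGA2, which use GABA, rose by 1.10 and 1.12. GAP1 and MEP2 also fell in PY1 (-1.93 and -1.65), and no interaction was called for them.

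Respiratory genes rose in met30-6. Of 38 subunits of the respiratory chain and ATP synthase, 32 rose and 1 fell, with a median of 0.60, beside 8 higher and 3 lower in PY1 with a median of 0.08. The interaction was called upward for 29. QCR10, of complex III, read 12.98 and 13.19 in met30-6 at 35 °C, against 11.36 and 11.43 at 25 °C (1.69), while in PY1 it read 12.43 and 12.42 at 35 °C, against 12.34 on both arrays at 25 °C. At 25 °C QCR10 was thus lower in met30-6 than in PY1, and at 35 °C it was higher. The median level of the whole list was 12.49 at 35 °C and 12.06 at 25 °C in met30-6. In PY1 it was 12.56 at 35 °C and 12.55 at 25 °C, so the list as a whole did not exceed PY1 at 35 °C. COX5B rose by 1.41 and SDH1 by 1.31, and CYC1 was the 1 that fell. Of 23 enzymes of the citric acid cycle and of reactions linked to it, 17 rose and 4 fell, with a median of 0.65. The linked enzymes include ICL1, MLS1, PYC1, PYC2, PCK1 and FBP1. IDH1 rose by 1.40 and ACO1 by 1.09, and MDH2 (-0.90) and ICL1, of the glyoxylate cycle (-0.75), were among those that fell.

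Fatty acid oxidation genes, which glucose normally holds low, rose in 14 of 19 cases and fell in 1, with a median of 0.65. POT1 read 8.80 and 8.69 at 35 °C, against 5.40 and 5.42 at 25 °C (3.33). POX1 read 8.16 and 8.22 at 35 °C, against 4.81 and 4.93 at 25 °C (3.32). The 25 °C values of both genes lay under 6 and were not shown to be above background, so the sizes of these differences are uncertain. CAT2, carnitine acetyltransferase, rose by 2.35, and PEX11 fell by 0.56. These genes stayed at low or middling levels even at 35 °C. Of 24 glycolytic and fermentation genes, 9 rose and 3 fell, beside 38.8% and 29.3% of all genes, with a median of 0.09. The list's median level was 14.04 at 35 °C and 13.67 at 25 °C, close to the highest array value. The genes that rose included the minor isoforms GPM2 (3.01), PDC6 (1.18) and PYK2 (1.01) along with TDH1 (1.36). Of 17 hexose transporters, 7 rose and 1 fell, beside 38.8% and 29.3% of all genes. Their median level in met30-6 was 5.94 at 35 °C and 5.97 at 25 °C, which was not shown to be above background. HXT11 and HXT13, among the 7 that rose, lost their calls after quantile normalisation. HXT7, of high affinity, rose by 2.11 and HXT5 by 2.00, while HXT4 fell by 0.52. All 5 aryl alcohol dehydrogenase genes rose, AAD6 most (2.16) and AAD4 next (1.35), whereas 3 of the 5 were called lower in PY1. AAD3 (0.59) rests on the choice among its probe sets: with their mean it differed by 0.04 and was not called (adjusted p = 0.735 by limma). Members of that family are close in sequence and may share signal.

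Iron, phosphate, lipid and wall genes were mixed. Of 32 iron regulon genes, 17 fell and 6 rose, beside 29.3% and 38.8% of all genes, with a median of -0.27. FRE3 (-1.49) and FRE4 (-1.31), reductases for iron carriers, fell, and the carrier transporter ARN2 fell by 0.94, while ISU1, an iron-sulfur scaffold, rose by 0.92. LSO1 was called higher (3.10), but its 25 °C arrays read 4.93 and 2.79, and without replicate 2 at 25 °C its difference was 2.02. Of 25 phosphate genes, 7 rose and 7 fell. The acid phosphatases PHO11 and PHO5 fell by 2.03 and 1.83, with PHO5 at 9.79 and 9.81 at 35 °C, against 11.61 and 11.65 at 25 °C, and PHM7 and PHM8 (1.96) rose. PHO11 belongs to a family of near-identical phosphatase genes.

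Of 21 phospholipid and inositol genes, 7 rose and 7 fell. OPI3 and CHO2, the methyltransferases that turn phosphatidylethanolamine into phosphatidylcholine with S-adenosylmethionine, rose by 1.13 and 0.59, and INO1, of inositol synthesis, rose by 1.07. SCS3 and URA7, a CTP synthase (-1.30), fell. Of 25 ergosterol genes, 9 rose and 4 fell in met30-6, all by less than 0.6 on the log2 scale. Without met30-6 35 °C replicate 1, or without met30-6 25 °C replicate 1, 4 were higher, and after quantile normalisation 2 were. Of 38 cell wall genes, 16 rose and 9 fell. SPI1, the glucan synthase GSC2 (2.17), the mannoprotein CWP1 (1.35) and SLT2, the kinase of the cell wall integrity pathway (1.03), were higher, and UTR2 (-1.59), SCW10 (-1.34), TIR4 (-1.14) and DAN1 were lower. The called shares of the phosphate (14 of 25), phospholipid (14 of 21), ergosterol (13 of 25) and cell wall (25 of 38) lists, in either direction, lay under the 68.1% of all genes.

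Genes of MATa cells and the pheromone response had a median level of 10.31 in met30-6 at 35 °C and 10.82 at 25 °C, and genes of MATalpha cells had 4.48 and 5.84. Of the 18 listed with MATa, 2 rose and 4 fell in met30-6, beside 38.8% and 29.3% of all genes. AGA1 (-0.59) and FAR1 were among the falls and FUS2 (1.43) among the rises. The number lower was 9 after quantile normalisation, 2 without met30-6 25 °C replicate 2 and 7 without met30-6 35 °C replicate 1. In PY1 1 rose and 10 fell. Of 5 MATalpha genes, 1 rose, STE3 (0.52), and 1 fell, SAG1 (-0.34). Without met30-6 35 °C replicate 1, STE3 differed by 0.33, and after quantile normalisation by -0.11, and it was called in neither fit. STE3 also lost its call when either met30-6 25 °C array was left out and with a variance prior that follows intensity. The 23 meiotic genes had a median level of 6.85 at 35 °C and 6.44 at 25 °C. Of these, 12 rose and 4 fell in met30-6, beside 38.8% and 29.3% of all genes. SPO11 read 7.24 and 7.11 at 35 °C, against 5.29 and 5.21 at 25 °C, and remained among the weakly detected transcripts. The part of cell composition in the other gene groups was not tested.

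Of the 2116 genes higher in met30-6, 947 were called higher in PY1 as well, 44.75% of the met30-6 list and 66.27% of the PY1 list. Another 118 were called lower in PY1. Of the 1596 genes lower in met30-6, 324 were called lower in PY1, 20.3% of the met30-6 list and 56.94% of the PY1 list, and 210 were called higher there. Across genes the differences of the strains, which share no arrays, correlated at Pearson r = 0.517 and Spearman rho = 0.431, a description over genes that are not independent. The interaction was called with the sign of the met30-6 change for 353 of the 435 genes higher by at least 2-fold. It was so called for 264 of the 289 genes lower by at least 2-fold. Over all genes the interaction was called upward for 23.7% and downward for 24.5%. Both sets were picked by the met30-6 difference, which is part of the interaction, so these counts are no separate test. There were 399 genes called only in PY1, and for 219 of them the interaction was called.

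Some large changes had no call for a difference between the strains. GPM2 read 12.33 and 12.39 in met30-6 at 35 °C, against 9.29 and 9.40 at 25 °C. Its difference was 3.01 ± 0.06 in met30-6 and 3.05 ± 0.06 in PY1. CRC1 (4.10 in met30-6, 3.82 in PY1), YHR140W (3.38 and 2.93), YOR338W (2.94 and 2.98), IRC18 (2.85 and 2.95), SPO20 (2.44 and 2.37), THI2 (2.17 and 2.19) and MEI4 (2.13 and 2.63) shared this pattern on the higher side. On the lower side it held for WSC4, QDR2 (-2.11 in met30-6, -1.53 in PY1), GAP1, YCR102C (-1.94 and -2.15), MEP2, YER187W (-1.43 and -1.21), YLR460C (-1.39 and -1.29) and FAR1 (-1.13 and -1.36). A missing call for the interaction does not show that the strains responded alike.

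**Figure D5:**
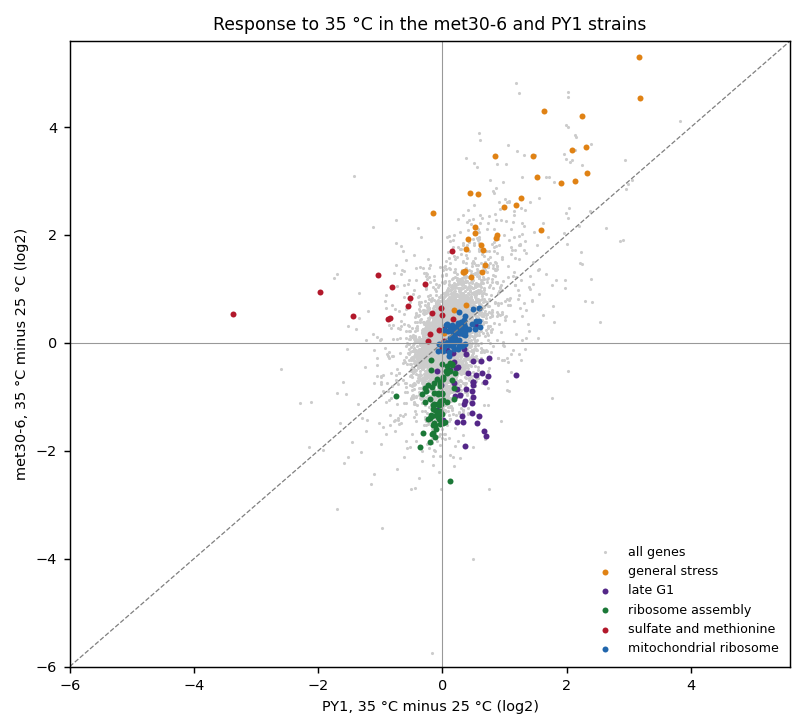
Difference between 35 °C and 25 °C for each of 5449 genes in PY1 (horizontal axis, log2) and in met30-6 (vertical axis, log2), with 5 gene groups coloured and a dashed line where both are equal. General stress genes lie mostly above the line on the upper right, late G1 genes and ribosome assembly factors below zero on the vertical axis, and mitochondrial ribosomal proteins near the line.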

How the data were processed

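Total RNA was labelled with biotin and measured on Affymetrix arrays, per the labels' protocols. The authors deposited 1 table of 5716 probe sets for 8 arrays, read as log2 expression values from their range (0 to 14.51, array medians 10.97 to 11.09). Base 2 is thus an inference, and the sources used here state neither background correction nor summarisation nor scaling. Precision is limited by the number of arrays. The platform annotation gave 1 symbol for 5498 probe sets and none for 218, and the one with the highest mean over 8 arrays was kept for each of 5449 genes. A mean per group was fitted by limma 3.58.1 (R 4.3.3) over the 8 arrays (4 residual and 2.7 prior degrees of freedom), with 3 contrasts, two-sided p-values and no filter; the fit was tested on simulated data. The gene groups (42 lists), 30 paralog pairs and contrasts were chosen with earlier results of these data known. Named genes were the 15 largest called rises and falls with both means of at least 6, up to 6 each way with a mean under 6, up to 8 each way called in opposite or in the same direction in both strains, up to 5 each way per list, the Met4 complex and the paralogs. A planned search of promoter motifs was not made, as no sequence was used here. Alternatives changed the samples fitted, scaling, dim genes, probe-set rule, variance prior, replicate block, arrays and threshold.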

Additional observations from a re-analysis of the deposited data

Results flagged for a closer look

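A total of 2631 genes responded to 35 °C differently in met30-6 and in PY1 by the limma interaction, 1294 in the upward and 1337 in the downward direction. Among the genes called in opposite directions in the strains, those whose smaller difference of the 2 strains was largest are given with their interactions. Upward they were AAD6 (3.27), YCT1 (2.97), SEO1 (2.95), MET16 (2.92), MET1 (2.28), GSH1 (2.27), ARO10 (2.08) and SUL2 (1.84), which rose in met30-6 and fell in PY1. SEO1, a putative permease, read 13.73 and 13.74 in met30-6 at 35 °C, against 12.54 and 12.52 at 25 °C, and 7.06 and 7.38 in PY1 at 35 °C, against 9.06 and 8.87 at 25 °C. Downward they were PUT1 (-3.45), YBR221W-A (-2.79), TOS6 (-2.42), HES1 (-2.40), TOP3 (-1.96), RTT107 (-1.89), YPS3 (-1.75) and GFD2 (-1.56), which fell in met30-6 and rose in PY1. RTT107, which acts at damaged replication forks, read 9.22 and 9.14 in met30-6 at 35 °C, against 10.33 and 10.34 at 25 °C, and 11.19 and 11.17 in PY1 at 35 °C, against 10.51 and 10.37 at 25 °C. YBR221W-A had no value above 4 on any array and lost its met30-6 call in at least 1 alternative fit.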

How the results depend on the processing

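In met30-6 the numbers of genes called ranged from 1724 to 2226 higher and from 1264 to 1957 lower over all alternatives tried. With a replicate block, 2031 were higher and 1540 lower. Whether replicate numbers pair the samples is not known. Deviations of same-numbered arrays correlated at -0.044 between the met30-6 groups and at -0.18 to 0.11 over all pairs of groups. Such a correlation cannot show how the samples were handled, so it does not settle the pairing. In PY1, quantile normalisation called 1144 genes lower, so that 50.1% of its calls were higher in place of 71.5%. Leaving out 1 array at a time gave 732 to 1424 higher and 299 to 516 lower genes in PY1, with the lowest count of higher genes without the PY1 array 35 °C replicate 2 and of lower genes without 35 °C replicate 1. At an adjusted p under 0.01, PY1 had 748 higher and 275 lower and the interaction 829 higher and 871 lower. Quantile normalisation moved the median difference in met30-6 to -0.0065 and turned the medians of the ergosterol (-0.11) and cell wall (-0.0292) lists and the differences of EXG1 (-0.0176), RPL9B (-0.0723), SSE1 (-0.01025) and STE3 (-0.11). Without dim genes the MATalpha median was 0.0905. The cause was not tested. Of 358 named genes called in met30-6, 43 lost the call in at least 1 alternative at 0.05. Which probe sets lie above background was not analysed here, and there was 1 strain and 2 arrays per group behind each mean.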

Other observations

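Genes that stand next to each other on the chromosome, by the order of a gene table of the R64 assembly, were compared after their values were seen. SCS3, which fell by 3.998 in met30-6, stands between SOH1, which rose by 1.77, and MET13, which rose by 0.52. CTF19 (-2.11) is next to IRC15 (3.35), and GTO3 (-3.08) is next to GAD1 (2.88). FMP45 and HBT1, both among the 15 largest rises, are neighbours, as are ALD3 and ALD2. Of 429 genes higher by at least 2-fold in met30-6, 90 (21%) had a neighbour that was too, against 748 of all 5406 placed genes (13.8%). Among genes lower by at least 2-fold, 26 of 288 (9.03%) had such a neighbour, against 520 of all genes (9.62%). Neighbours can share signal through overlapping transcripts, and this was not tested.

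Genes that carry a systematic name alone made up 72 of the 435 genes higher by at least 2-fold (16.6%) and 31 of the 289 lower by as much (10.7%), against 9.16% of all genes. Runs of adjacent rises included GDH3, BDH2 and BDH1, and JLP1, YLL056C and YCT1.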
